A study of Saccharomyces cerevisiae with 9 samples.

Results

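The 36 genes described here encode enzymes and carriers of the tricarboxylic acid (TCA) cycle, the glyoxylate cycle, gluconeogenesis and the use of ethanol, acetate, lactate and carnitine esters in the budding yeast Saccharomyces cerevisiae. They were chosen by gene name from known function, and all 36 were found among the 6256 genes on each array. The TCA cycle oxidises acetyl groups in mitochondria, the glyoxylate cycle bypasses its steps that release carbon dioxide, and gluconeogenesis turns the resulting acids into sugar phosphates. Yeast growing on glucose ferments it to ethanol and keeps many of these genes repressed, and growth on ethanol requires some of them.

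RNA of 5 strains was measured on 9 arrays with 2 colours, with each strain labelled with Cy5. The laboratory strain BY4716 had 3 arrays, numbered 7, 9 and 11, and so had the vineyard-derived strain RM11-1a. YAD350, with an MKT1 D30G replacement in the laboratory background BY4742, had 1 array, as had YLK804, with the SAL1-RM allele in BY4724, and YLK806, with the SAL1-BY allele in RM11-1a. The product of MKT1 regulates genes after their transcription, and that of SAL1 moves adenine nucleotides into mitochondria. All cultures grew in yeast nitrogen base at 6.7 g/L with 2% glucose, 100 mg/L leucine, 100 mg/L lysine and 20 mg/L uracil. YAD350 also received 20 mg/L histidine. The growth phase at harvest is not given in the sources used here. Each array was read against a Cy3 reference that pooled RNA of BY4716 and RM11-1a from glucose and from ethanol cultures, and the labels of the exchange strain arrays give the ethanol as 1%. No dyes were swapped, so the reference and the dye cannot be told apart in a ratio, whereas both are shared by the arrays that a difference between strains sets side by side. No label states whether arrays 7, 9 and 11 of a strain were separate cultures. Their spread, on which all p-values rest, may therefore be technical.

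For YAD350, YLK804 and YLK806 the label fields contradict each other about the dye of the strain. Cy5 was taken as the strain, since the correlation with the background parent across genes was positive, between 0.806 and 0.886. The auxotrophic marker and mating type genes went with the labels on all 9 arrays. RM11-1a, YLK804 and YLK806 had the mating type a pattern, and BY4716 and YAD350 had the alpha pattern. Arrays were scanned on 6 days. BY4716 array 9 and RM11-1a array 9 shared a day, as did YLK804 and YLK806, and YAD350 was alone on its day. The 36 members were well above background in the reference channel on all arrays, and 35 of them were so in the strain channel. The exception was IDP3. No member was saturated.

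The first comparison set the parental strains on glucose against the reference pool, which holds RNA of ethanol-grown cells. Nearly the whole group was lower in the glucose cultures. Of the 36 members 35 were lower than the reference and 1 was higher, at an adjusted p under 0.05 by limma's moderated test, while 79.7% of all 5865 genes tested were called, 41.1% lower and 38.6% higher. The median log2 ratio was -2.07 over the members and -0.01 over all genes. At least 2-fold below the reference in both parental strains were 28 members, against 2.05% of all genes, a total of 120. Averaged over the parents, 12 genes lay at least 16-fold below the reference, which is 0.205% of those tested, and 10 of these 12 were members. The other two were ACH1, which encodes a CoA transferase of acetate use, at -4.18, and GDH3, which encodes a glutamate dehydrogenase, at -4.22. GDH3 was chosen after its value was seen. The count of members depends on the processing. With Agilent's deposited ratio CIT3, JEN1 and CAT2 also lay more than 16-fold below the reference, at -5.13, -5.06 and -4.11. The count over all genes with that ratio is not given here.

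**Figure D1:**
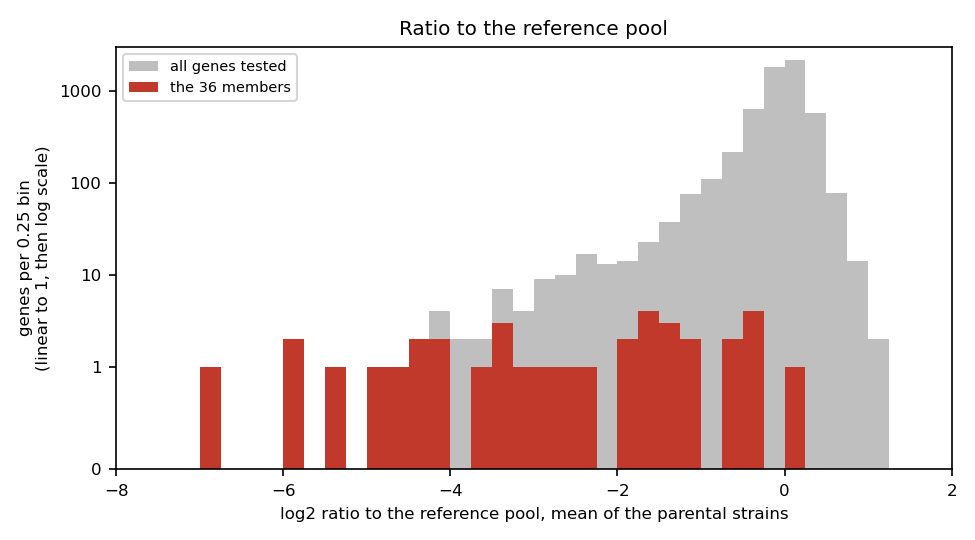
Histogram of the log2 ratio to the reference pool, averaged over BY4716 and RM11-1a, for all 5865 genes tested (grey) and the 36 members (red), with the number of genes per bin on an axis that is linear to 1 and logarithmic above. The members spread from -6.78 to 0.16, and the lowest bins hold only members.

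The second comparison set RM11-1a against BY4716 and asked how the parental backgrounds differ on glucose. The parents also differ in mating type pattern and in 3 marker genes. The mean log2 ratio in BY4716 and RM11-1a was 1.24 and -2.785 for LEU2, 1.38 and -2.49 for URA3, and -3.15 and 0.96 for LYS2. These differences cannot be told apart from the rest of the background. Most of the group was higher in RM11-1a. Of the 36 members 25 were called higher and 3 lower, and 8 did not pass. Of all genes tested 63.0% were called, 33.1% higher and 29.9% lower. The median log2 difference was 0.44 over the members and 0.01 over all genes. The arrays of the parental strains did not overlap for 27 members, against 70.0% of all genes. The arrays measure the mean of a culture, so less RNA in each cell and a smaller share of expressing cells cannot be told apart. The count depends on how arrays are scaled. When the spread of log2 ratios was made equal between arrays, 14 members were higher and 4 lower. Of the 11 members that this setting no longer called higher, 10 lay at least 8-fold below the reference in the parental mean, and the 14 that stayed lay at -2.88 or above. With Agilent's deposited ratio, which is not scaled in this way, 24 were higher and 3 lower. Within the scan day that held array 9 of both strains, 27 of the 28 called members had the same sign. Both arrays are part of the comparison itself, and where the parental arrays do not overlap this sign is fixed. The count is therefore no separate check. For all 28 called members the Cy5 signal of the strain differed more than the Cy3 signal of the reference.

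**Figure D2:**
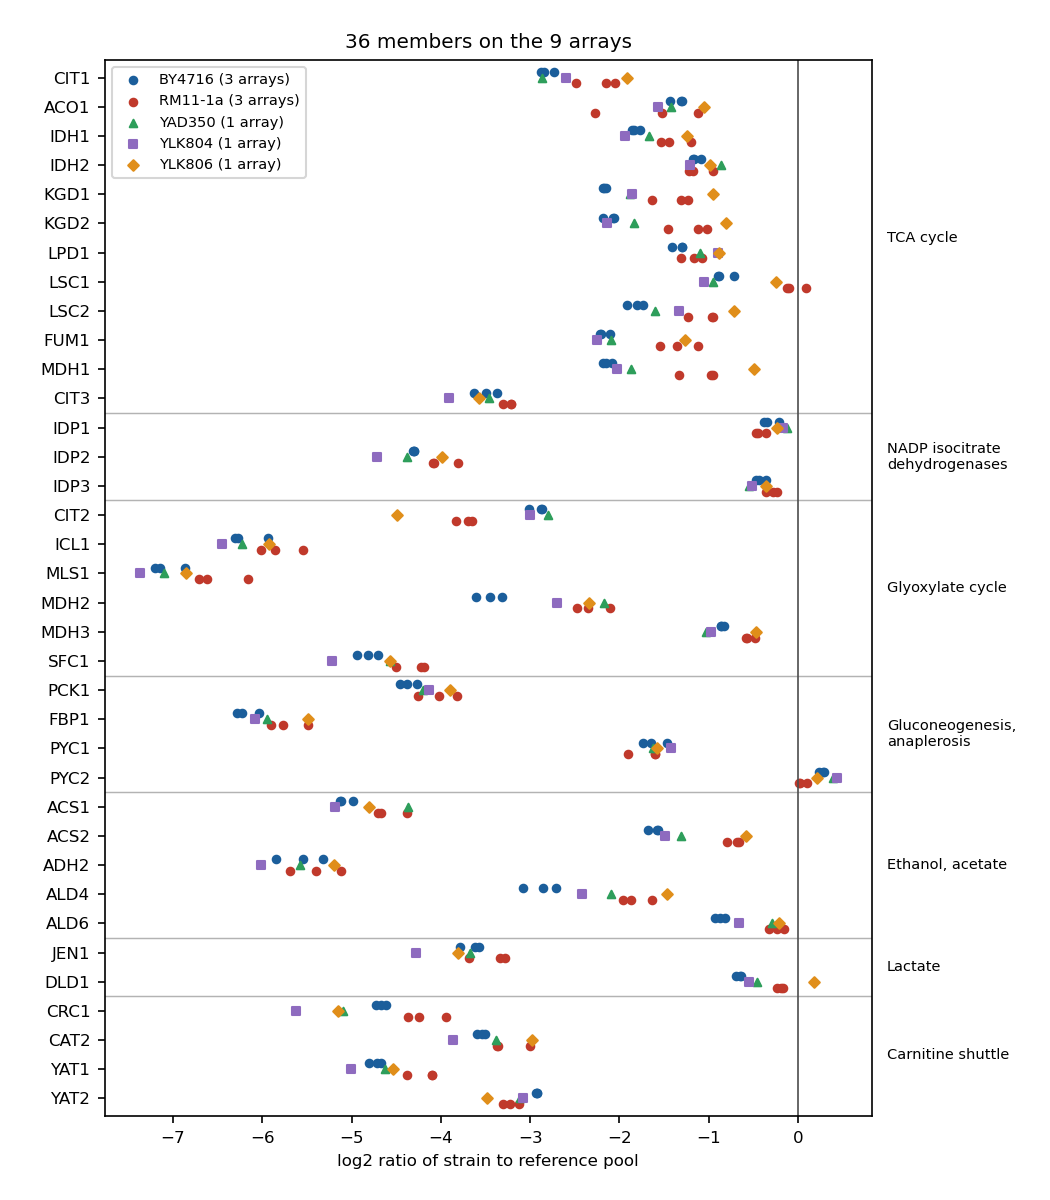
The log2 ratio of strain to reference pool for each of the 36 members (rows, grouped by role) on each of the 9 arrays, with blue points for the 3 BY4716 arrays, red points for the 3 RM11-1a arrays and 1 symbol for each exchange strain array. All points of 33 members lie below 0, and LSC1, DLD1 and PYC2 have points above it.

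In the mitochondrial TCA cycle, 9 of 12 members were higher in RM11-1a, none was lower and 3 did not pass, with a median difference of 0.68. The entry enzymes differed among themselves. The citrate synthase gene CIT1 had log2 ratios of -2.73, -2.84 and -2.88 on the BY4716 arrays, -2.48, -2.05 and -2.16 on the RM11-1a arrays, -2.86 for YAD350, -2.60 for YLK804 and -1.92 for YLK806. All RM11-1a arrays lay above all BY4716 arrays, and the difference was 0.59 ± 0.11 (SE, adjusted p = 0.002). ACO1, for aconitase, was at -1.30, -1.43 and -1.31 on the BY4716 arrays, -2.27, -1.11 and -1.53 on the RM11-1a arrays, -1.43 for YAD350, -1.57 for YLK804 and -1.05 for YLK806. RM11-1a array 7 was the lowest of all 9 and array 9 the highest of the 6 parental ones, so the strains overlapped and the difference of -0.29 ± 0.25 (SE, adjusted p = 0.35) did not pass. Without RM11-1a array 9 it was -0.55 with an adjusted p of 0.046, and within the shared scan day it was 0.32. IDH1 and IDH2 encode the subunits of the NAD-dependent isocitrate dehydrogenase. IDH1 had ratios of -1.77, -1.84 and -1.85 on the BY4716 arrays, -1.53, -1.20 and -1.44 on the RM11-1a arrays, -1.67 for YAD350, -1.94 for YLK804 and -1.25 for YLK806, without overlap, and differed by 0.43 ± 0.08 (SE, adjusted p = 0.0025). For IDH2 the values were -1.16, -1.09 and -1.18 on the BY4716 arrays, -1.23, -0.95 and -1.17 on the RM11-1a arrays, -0.87 for YAD350, -1.21 for YLK804 and -0.99 for YLK806. The strains overlapped, and the difference was 0.03 ± 0.07 (SE, adjusted p = 0.76), so of the pair IDH1 passed and IDH2 did not.

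The middle of the cycle was higher in RM11-1a at each subunit that belongs to it alone. KGD1 and KGD2 encode the E1 and E2 subunits of the 2-oxoglutarate dehydrogenase, and LPD1 encodes the E3 subunit, which other dehydrogenase complexes share. KGD1 was at -2.15, -2.19 and -2.17 on the BY4716 arrays, -1.64, -1.23 and -1.31 on the RM11-1a arrays, -1.88 for YAD350, -1.86 for YLK804 and -0.95 for YLK806, and the difference was 0.78 ± 0.10 (SE, adjusted p = 0.00029). KGD2 was at -2.07, -2.06 and -2.18 on the BY4716 arrays, -1.45, -1.01 and -1.12 on the RM11-1a arrays, -1.84 for YAD350, -2.14 for YLK804 and -0.81 for YLK806, with a difference of 0.91 ± 0.11 (SE, adjusted p = 0.00021). Both had the 3 RM11-1a arrays above the 3 BY4716 arrays. The values of LPD1 were -1.30, -1.30 and -1.42 on the BY4716 arrays, -1.31, -1.08 and -1.17 on the RM11-1a arrays, -1.10 for YAD350, -0.90 for YLK804 and -0.89 for YLK806. RM11-1a array 7 lay within the BY4716 range, and the difference of 0.16 ± 0.06 (SE, adjusted p = 0.066) did not pass. LPD1 did pass without RM11-1a array 7, at 0.22 with an adjusted p of 0.0097, and it was 0.22 within the shared scan day. Both succinyl-CoA ligase genes were higher. LSC1, the alpha subunit, was at -0.71, -0.88 and -0.90 on the BY4716 arrays, -0.10, 0.09 and -0.12 on the RM11-1a arrays, -0.95 for YAD350, -1.05 for YLK804 and -0.25 for YLK806, a difference of 0.79 ± 0.07 (SE, adjusted p = 6.2e-05). LSC2, the beta subunit, was at -1.73, -1.80 and -1.91 on the BY4716 arrays, -1.23, -0.96 and -0.95 on the RM11-1a arrays, -1.61 for YAD350, -1.33 for YLK804 and -0.72 for YLK806, a difference of 0.77 ± 0.08 (SE, adjusted p = 0.00014). In both, the parental arrays were apart. LSC1 stood near the reference level in RM11-1a, whereas LSC2 was 2.07-fold below it.

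FUM1, the fumarase gene, had ratios of -2.10, -2.22 and -2.21 on the BY4716 arrays, -1.54, -1.12 and -1.35 on the RM11-1a arrays, -2.10 for YAD350, -2.25 for YLK804 and -1.27 for YLK806, and RM11-1a was higher by 0.84 ± 0.10 (SE, adjusted p = 0.00022). MDH1, the malate dehydrogenase of mitochondria, was at -2.08, -2.15 and -2.18 on the BY4716 arrays, -1.33, -0.95 and -0.98 on the RM11-1a arrays, -1.86 for YAD350, -2.02 for YLK804 and -0.49 for YLK806. It was 2.08-fold higher in RM11-1a, a log2 difference of 1.05 ± 0.10 (SE, adjusted p = 6.4e-05), with no overlap and with YLK806 above all other arrays. CIT3, which encodes a mitochondrial enzyme with citrate and methylcitrate synthase activity, stood apart from the other TCA genes by its distance from the reference. Its values were -3.63, -3.38 and -3.50 on the BY4716 arrays, -3.22, -3.22 and -3.30 on the RM11-1a arrays, -3.47 for YAD350, -3.91 for YLK804 and -3.58 for YLK806, and the difference was 0.26 ± 0.07 (SE, adjusted p = 0.01), which turned to -0.07 when arrays were scaled to equal spread. CIT3 is dim in the strain channel, at 17.0 to 34.5 units above background, and Agilent's ratio put its parental mean at -5.13 rather than -3.37.

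The NADP-dependent isocitrate dehydrogenases work in 3 compartments. IDP1, the mitochondrial enzyme, stayed near the reference, between -0.47 and -0.12 over all 9 arrays, and the parental difference of -0.11 ± 0.05 (SE, adjusted p = 0.098) did not pass. It did pass under median centring, at -0.19, and with arrays scaled to equal spread, at -0.15, and it was -0.24 within the shared scan day. Median centring also put the parental mean of IDP1 above the reference, at 0.26. IDP2, the cytosolic enzyme, was at -4.31, -4.30 and -4.30 on the BY4716 arrays, -4.09, -3.81 and -4.08 on the RM11-1a arrays, -4.38 for YAD350, -4.72 for YLK804 and -3.98 for YLK806. It lay 19.8-fold below the reference in BY4716 and 15.9-fold below it in RM11-1a, and the difference between the strains was 0.31 ± 0.07 (SE, adjusted p = 0.0074), turning to -0.08 with arrays scaled to equal spread. IDP3, the peroxisomal enzyme, had ratios of -0.48, -0.35 and -0.44 on the BY4716 arrays, -0.28, -0.36 and -0.23 on the RM11-1a arrays, -0.54 for YAD350, -0.51 for YLK804 and -0.36 for YLK806. It was not well above background in the strain channel on any BY4716 array or in YAD350, so its level in BY4716 is uncertain. Over all 9 arrays its strain signal was 8.22 to 22.1 units above background, less than the offset of 50 added in processing. With that offset included, the processed strain signal of RM11-1a was 1.15-fold that of BY4716. An offset above the signal draws such a fold toward 1. The fitted difference in log2 ratio was 0.13 ± 0.05 (SE, adjusted p = 0.045). That value was 0.00 within the shared scan day and 0.93 with Agilent's ratio, and it did not pass without BY4716 array 7 or 11 or without RM11-1a array 7 or 11.

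The genes of both enzymes particular to the glyoxylate cycle lay farthest from the reference. MLS1, the malate synthase gene, was at -7.20, -7.14 and -6.87 on the BY4716 arrays, -6.62, -6.16 and -6.71 on the RM11-1a arrays, -7.10 for YAD350, -7.37 for YLK804 and -6.85 for YLK806. It was 134.5-fold below the reference in BY4716 and 90.3-fold below it in RM11-1a, the lowest ratio of all genes tested. Its reference signal lay between 8824 and 13140 units above background and its strain signal between 52.7 and 175. Agilent's ratio put its parental mean at -7.40 rather than -6.78. The difference between the parents was 0.57 ± 0.15 (SE, adjusted p = 0.011) and it turned to -0.06 with arrays scaled to equal spread. ICL1, for isocitrate lyase, was next, at -6.28, -6.30 and -5.93 on the BY4716 arrays, -5.86, -5.54 and -6.02 on the RM11-1a arrays, -6.23 for YAD350, -6.46 for YLK804 and -5.93 for YLK806. The strains overlapped and the difference of 0.37 ± 0.14 (SE, adjusted p = 0.051) did not pass. ICL1 did pass with scan day as a random block, at 0.42 with an adjusted p of 0.038, and it was 0.76 within the shared scan day. It also passed with an intensity trend, with the stricter background filter and without BY4716 array 11 or RM11-1a array 11, and it was -0.19 with arrays scaled to equal spread. SFC1, the carrier that exchanges succinate for fumarate across the mitochondrial membrane, had ratios of -4.94, -4.82 and -4.71 on the BY4716 arrays, -4.18, -4.23 and -4.51 on the RM11-1a arrays, -4.57 for YAD350, -5.22 for YLK804 and -4.57 for YLK806. The difference was 0.52 ± 0.10 (SE, adjusted p = 0.0021), and it was 0.08 and no longer called with arrays scaled to equal spread.

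CIT2 and MDH2 differed between the parents in opposite directions. CIT2, the peroxisomal citrate synthase and a known target of the retrograde pathway from mitochondria to the nucleus, was at -2.88, -2.87 and -3.01 on the BY4716 arrays, -3.83, -3.65 and -3.70 on the RM11-1a arrays, -2.80 for YAD350, -3.00 for YLK804 and -4.49 for YLK806. All BY4716 arrays lay above all RM11-1a arrays, and RM11-1a was lower, at -0.81 ± 0.06 (SE, adjusted p = 2.2e-05). MDH2, the cytosolic malate dehydrogenase, was at -3.45, -3.60 and -3.31 on the BY4716 arrays, -2.47, -2.11 and -2.35 on the RM11-1a arrays, -2.17 for YAD350, -2.70 for YLK804 and -2.34 for YLK806. It had the largest difference of the group, 1.14 ± 0.11 (SE, adjusted p = 6e-05), or 2.21-fold. The 3 BY4716 arrays were the lowest of the 9, and YAD350 and YLK804, which have laboratory backgrounds, lay above them as well. MDH3, the peroxisomal malate dehydrogenase, stayed closer to the reference, at -0.86, -0.83 and -0.86 on the BY4716 arrays, -0.58, -0.57 and -0.49 on the RM11-1a arrays, -1.03 for YAD350, -0.98 for YLK804 and -0.48 for YLK806, and was higher in RM11-1a by 0.31 ± 0.04 (SE, adjusted p = 3e-04). The malate dehydrogenases of all 3 compartments were thus called higher, whereas among the citrate synthases CIT1 was called higher and CIT2 lower.

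In gluconeogenesis, FBP1 and PCK1 encode the enzymes that bypass irreversible steps of glycolysis, and PYC1 and PYC2 encode pyruvate carboxylases that refill oxaloacetate. FBP1, for fructose-1,6-bisphosphatase, was at -6.22, -6.28 and -6.04 on the BY4716 arrays, -5.77, -5.49 and -5.90 on the RM11-1a arrays, -5.95 for YAD350, -6.08 for YLK804 and -5.49 for YLK806. PCK1, for phosphoenolpyruvate carboxykinase, was at -4.37, -4.46 and -4.27 on the BY4716 arrays, -4.02, -3.82 and -4.26 on the RM11-1a arrays, -4.20 for YAD350, -4.13 for YLK804 and -3.90 for YLK806. In neither gene did the parental strains overlap. RM11-1a was higher by 0.46 ± 0.11 (SE, adjusted p = 0.0075) for FBP1 and by 0.33 ± 0.11 (SE, adjusted p = 0.027) for PCK1, and with arrays scaled to equal spread these values turned to -0.10 and -0.06. Agilent's ratio also left PCK1 just short of the threshold, at 0.34 with an adjusted p of 0.054, and leaving out BY4716 array 7, BY4716 array 9 or RM11-1a array 9 did so too.

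Neither pyruvate carboxylase gene was higher in RM11-1a. PYC1 had ratios of -1.47, -1.65 and -1.73 on the BY4716 arrays, -1.90, -1.60 and -1.60 on the RM11-1a arrays, -1.63 for YAD350, -1.42 for YLK804 and -1.57 for YLK806, and the difference of -0.08 ± 0.10 (SE, adjusted p = 0.48) did not pass. PYC2 was at 0.24, 0.28 and 0.29 on the BY4716 arrays, 0.02, 0.11 and 0.01 on the RM11-1a arrays, 0.39 for YAD350, 0.43 for YLK804 and 0.21 for YLK806, the one member above the reference on every array, and it was lower in RM11-1a, with a difference of -0.22 ± 0.04 (SE, adjusted p = 0.0019). These genes are close paralogs and the probe sequences were not used here, so cross-hybridisation was not tested.

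Genes for the oxidation of ethanol to acetyl-CoA split by distance from the reference. ADH2, the alcohol dehydrogenase that oxidises ethanol, was at -5.54, -5.85 and -5.31 on the BY4716 arrays, -5.40, -5.12 and -5.69 on the RM11-1a arrays, -5.58 for YAD350, -6.01 for YLK804 and -5.20 for YLK806. The strains overlapped and the difference was 0.17 ± 0.17 (SE, adjusted p = 0.41), against 0.73 within the shared scan day and -0.34 with arrays scaled to equal spread. ACS1, an acetyl-CoA synthetase that glucose represses, had ratios of -5.13, -4.98 and -5.12 on the BY4716 arrays, -4.67, -4.38 and -4.71 on the RM11-1a arrays, -4.36 for YAD350, -5.18 for YLK804 and -4.80 for YLK806. RM11-1a was higher by 0.49 ± 0.09 (SE, adjusted p = 0.002), but by 0.03 and no longer called with arrays scaled to equal spread. ACS2, the acetyl-CoA synthetase used on glucose, was at -1.58, -1.68 and -1.57 on the BY4716 arrays, -0.68, -0.66 and -0.80 on the RM11-1a arrays, -1.30 for YAD350, -1.49 for YLK804 and -0.58 for YLK806. It was 1.86-fold higher in RM11-1a, at 0.90 ± 0.05 (SE, adjusted p = 5.3e-06), and its parental arrays were far apart.

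The aldehyde dehydrogenase genes, whose products make acetate, were also higher in RM11-1a. ALD4, the mitochondrial enzyme, was at -2.71, -2.85 and -3.08 on the BY4716 arrays, -1.96, -1.64 and -1.87 on the RM11-1a arrays, -2.10 for YAD350, -2.42 for YLK804 and -1.47 for YLK806, a difference of 1.06 ± 0.11 (SE, adjusted p = 0.00011). ALD6, the cytosolic enzyme, was at -0.82, -0.87 and -0.93 on the BY4716 arrays, -0.15, -0.33 and -0.23 on the RM11-1a arrays, -0.29 for YAD350, -0.66 for YLK804 and -0.21 for YLK806, a difference of 0.64 ± 0.05 (SE, adjusted p = 3.8e-05). In both genes the 3 BY4716 arrays were the lowest of the 9. ALD4 was 7.36-fold below the reference in BY4716 and 3.54-fold below it in RM11-1a, and ALD6 was 1.83-fold and 1.18-fold below it, although median centring put the parental mean of ALD6 above the reference, at 0.27.

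JEN1, the carrier of lactate and pyruvate, was at -3.78, -3.58 and -3.62 on the BY4716 arrays, -3.33, -3.28 and -3.68 on the RM11-1a arrays, -3.67 for YAD350, -4.28 for YLK804 and -3.81 for YLK806. The strains overlapped and the difference of 0.23 ± 0.11 (SE, adjusted p = 0.1) did not pass. JEN1 did pass with an offset of 10, at 0.35 with an adjusted p of 0.024, and without RM11-1a array 11, at 0.35. Within the shared scan day it was 0.30. Its strain signal was 19.2 to 41.5 units above background, and Agilent's ratio put its parental mean at -5.06 rather than -3.55. DLD1, the mitochondrial D-lactate dehydrogenase, had ratios of -0.64, -0.65 and -0.69 on the BY4716 arrays, -0.16, -0.24 and -0.19 on the RM11-1a arrays, -0.45 for YAD350, -0.54 for YLK804 and 0.18 for YLK806. All RM11-1a arrays lay above all BY4716 arrays, the difference was 0.47 ± 0.04 (SE, adjusted p = 2.7e-05), and YLK806 was the one array above the reference.

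The carnitine shuttle carries acetyl groups between compartments. CRC1, the carnitine carrier of the inner mitochondrial membrane, was at -4.72, -4.67 and -4.61 on the BY4716 arrays, -4.24, -3.94 and -4.37 on the RM11-1a arrays, -5.10 for YAD350, -5.63 for YLK804 and -5.15 for YLK806. RM11-1a was higher than BY4716 by 0.48 ± 0.10 (SE, adjusted p = 0.0042), and the 3 exchange strain arrays were the lowest of the 9. CAT2, a carnitine acetyltransferase of mitochondria and peroxisomes, was at -3.54, -3.60 and -3.51 on the BY4716 arrays, -3.37, -3.00 and -3.35 on the RM11-1a arrays, -3.38 for YAD350, -3.86 for YLK804 and -2.98 for YLK806, a difference of 0.31 ± 0.10 (SE, adjusted p = 0.025). Without any one of the BY4716 arrays this adjusted p lay between 0.052 and 0.079.

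YAT1, an acetyltransferase at the outer mitochondrial membrane, had ratios of -4.72, -4.81 and -4.67 on the BY4716 arrays, -4.10, -4.10 and -4.38 on the RM11-1a arrays, -4.62 for YAD350, -5.01 for YLK804 and -4.54 for YLK806, and RM11-1a was higher by 0.54 ± 0.08 (SE, adjusted p = 0.00079). With arrays scaled to equal spread the parental differences of CRC1, CAT2 and YAT1 were 0.07, -0.01 and 0.11, and none was called. YAT2, a further carnitine acetyltransferase, was at -2.93, -2.92 and -2.94 on the BY4716 arrays, -3.30, -3.12 and -3.22 on the RM11-1a arrays, -3.12 for YAD350, -3.07 for YLK804 and -3.48 for YLK806. It was the exception of the shuttle, with a difference of -0.29 ± 0.05 (SE, adjusted p = 0.0016), lower in RM11-1a, and no overlap.

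Genes related to the group but not in it were counted in the same comparison, where 63.0% of all genes were called, 33.1% higher and 29.9% lower. All 4 subunit genes of succinate dehydrogenase, the TCA cycle enzyme that also feeds the respiratory chain, were higher in RM11-1a, with SDH1 at 1.69 ± 0.20 (SE, adjusted p = 0.00023), SDH4 at 1.26 ± 0.27 (SE, adjusted p = 0.0064) and SDH2 at 1.09 ± 0.24 (SE, adjusted p = 0.0052). Of 17 regulators of respiratory and gluconeogenic genes, 12 were higher and 2 lower. The largest differences were in ADR1, an activator of ethanol and fatty acid genes, at 1.73 ± 0.05 (SE, adjusted p = 1.5e-07), HAP4, the activating subunit of the Hap complex, at 1.23 ± 0.08 (SE, adjusted p = 7.8e-06), and CAT8, an activator of gluconeogenic genes, at 0.80 ± 0.09 (SE, adjusted p = 0.00015). Among 11 carriers of organic acids and pyruvate 8 were higher and none lower, led by the oxaloacetate carrier OAC1 at 1.82 ± 0.05 (SE, adjusted p = 1.7e-07) and the dicarboxylate carrier DIC1 at 1.78 ± 0.06 (SE, adjusted p = 2.3e-07). The log2 ratio of OAC1 was 1.07 in YAD350 and 1.20 in YLK806, where LEU2 was low as in RM11-1a. In YLK804, where LEU2 was high as in BY4716, it was -0.60. Whether OAC1 goes with LEU2 or with the background was not tested. Of 7 genes of acetate and propionate use 6 were higher and 1 lower. Of 7 irreversible glycolytic enzymes 2 were higher and 3 lower, with the hexokinase gene HXK1 at 1.72 ± 0.16 (SE, adjusted p = 7.3e-05) and its paralog HXK2 at -1.01 ± 0.09 (SE, adjusted p = 5.8e-05). The pyruvate dehydrogenase subunits had 1 of 4 higher and 1 lower, and the genes for degradation of gluconeogenic enzymes had 3 of 8 higher and 1 lower. In these last lists 2 of 4 and 4 of 8 were called, below the share over all genes. Under scaling to equal spread and under median centring, the genes given with an adjusted p in this paragraph kept their signs. Their part in the members' differences was not tested.

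YLK806 and YLK804 give a further comparison of an RM background with a BY background. These 2 arrays enter no parental value, were scanned on the same day, and both had the mating type a pattern, but each strain carries the other background's SAL1 allele. The strains also differ in LEU2, at 1.14 in YLK804 and -3.53 in YLK806, and in LYS2, at -3.84 and 1.00. Of the 36 members 18 were higher in YLK806 and 3 lower, against 41.1% of 5863 genes called, 22.1% higher and 18.9% lower. The median was 0.52. For LSC1, 1 of the 21 called, the reference's signal differed more than the strain's. It did so too for ADH2, which was not called. The Cy5 signal of ADH2 was lower, at -0.94, and its Cy3 signal was at -1.75, and Agilent's ratio gave a difference of 0.255. The sign was that of the parental comparison for 35 members, and 21 were called in both with the same sign, 7 only in the parental one, and none only here or in opposite directions. Over all genes, 2407 were called here and 2266 of these were also called between the parents, 2249 of them with the same sign. Both comparisons take their spread from the same parental arrays, so their calls are not independent. The share of all genes with the same sign in both, called or not, was not counted. MDH1 differed by 1.53 ± 0.17 (SE, adjusted p = 0.00044), KGD2 by 1.33 ± 0.18 (SE, adjusted p = 0.0012) and FUM1 by 0.98 ± 0.17 (SE, adjusted p = 0.0033). CIT2 was lower, at -1.49 ± 0.10 (SE, adjusted p = 5.2e-05), or 2.82-fold. ACO1, the 1 member whose sign differed, was at 0.52 here and at -0.29 between the parents and passed in neither.

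MDH2 had the largest difference between the parents, whereas YLK806 minus YLK804 was 0.35 ± 0.18 (SE, adjusted p = 0.16), which did not pass. Of the 10 members at least 16-fold below the reference 4 passed, all higher, and 6 did not. Those that did not were MLS1 at 0.52 ± 0.26 (SE, adjusted p = 0.15), ICL1 at 0.53 ± 0.24 (SE, adjusted p = 0.12), ADH2 at 0.81 ± 0.29 (SE, adjusted p = 0.061), ACS1 at 0.38 ± 0.15 (SE, adjusted p = 0.085), CRC1 at 0.47 ± 0.18 (SE, adjusted p = 0.068) and PCK1 at 0.23 ± 0.18 (SE, adjusted p = 0.35). IDP2 was higher by 0.74 ± 0.13 (SE, adjusted p = 0.0033), SFC1 by 0.64 ± 0.16 (SE, adjusted p = 0.017), FBP1 by 0.59 ± 0.19 (SE, adjusted p = 0.04) and YAT1 by 0.47 ± 0.14 (SE, adjusted p = 0.032). With arrays scaled to equal spread these 4 turned to -0.10, -0.31, -0.55 and -0.47, and the member median to -0.10. The YLK806 array had the smallest spread of ratios of the 9, and that setting multiplied its ratios by 1.19, against 0.98 for YLK804.

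**Figure D3:**
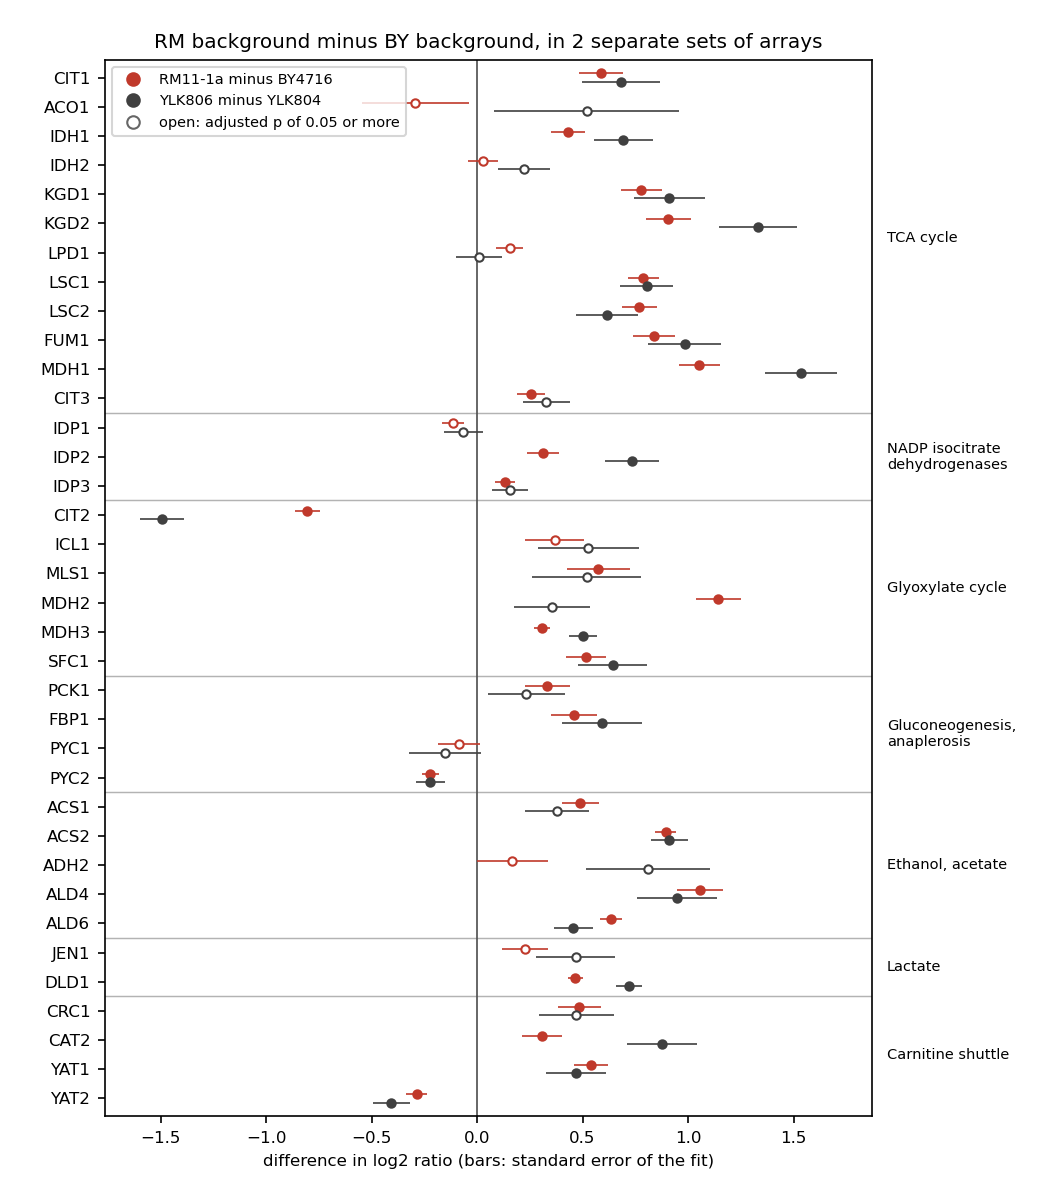
Difference in log2 ratio for the 36 members in RM11-1a minus BY4716 (red, 3 arrays against 3) and in YLK806 minus YLK804 (dark grey, 1 array against 1), with the standard error of the fit as bars and open points where the adjusted p was 0.05 or more. The TCA cycle members lie mostly to the right of 0 in both sets, and CIT2, PYC2 and YAT2 lie to the left in both.

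The MKT1 replacement strain was compared with BY4716, although its background, BY4742, differs from BY4716 in its markers. Of the 36 members 6 were called higher in YAD350 and 2 lower, against 47.1% of 5850 genes called, 26.6% higher and 20.5% lower. None of the 12 TCA cycle members passed. Without RM11-1a array 7, which enters only the estimate of the spread here, 6 of them were called higher, KGD1 at 0.29, KGD2 at 0.26, MDH1 at 0.28, IDH2 at 0.28, LPD1 at 0.24 and LSC2 at 0.21, and 15 members were called in all. MDH2 was higher by 1.28 ± 0.15 (SE, adjusted p = 0.00075), and 4 of 5 genes of ethanol and acetate use were higher: ALD4 by 0.79 ± 0.16 (SE, adjusted p = 0.0055), ACS1 by 0.72 ± 0.13 (SE, adjusted p = 0.0034), ALD6 by 0.58 ± 0.08 (SE, adjusted p = 0.0011) and ACS2 by 0.31 ± 0.07 (SE, adjusted p = 0.011). DLD1 was higher by 0.21 ± 0.05 (SE, adjusted p = 0.013), and it was -0.04 once the average of the YLK804 and YLK806 shifts from their parents was subtracted. ALD4 was at 0.37 and ACS2 at 0.18 after that subtraction, and neither passed, whereas MDH2, ACS1 and ALD6 still did, at 0.92, 0.88 and 0.46. The subtraction also called CIT2 higher at 0.54, CIT3 at 0.40, SFC1 at 0.59 and YAT1 at 0.42. MDH3 was lower, at -0.18 ± 0.05 (SE, adjusted p = 0.03), and CRC1 was lower, at -0.43 ± 0.14 (SE, adjusted p = 0.041). Without any 1 of the BY4716 arrays neither passed, with adjusted p between 0.065 and 0.096, and CRC1 turned to 0.53 after that subtraction and passed as higher, with an adjusted p of 0.043. For ACS2, CRC1 and MDH3 the reference's signal differed more than the strain's. CRC1 differed by 0.62 in the Cy3 channel and by 0.19 in the Cy5 channel.

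The SAL1 exchanges were compared with the parental strain of each background. YLK804 also differs from BY4716 in mating type pattern and in URA3, at -3.47 against a mean of 1.38. In that comparison the allele cannot be told apart from these differences. In YLK804, 3 members were called higher and 4 lower against BY4716, where 21.1% of 5865 genes were called, 11% higher and 10.2% lower. MDH2 was higher by 0.76 ± 0.15 (SE, adjusted p = 0.015), LSC2 by 0.48 ± 0.12 (SE, adjusted p = 0.028) and LPD1 by 0.44 ± 0.09 (SE, adjusted p = 0.016). CRC1 was lower, at -0.96 ± 0.14 (SE, adjusted p = 0.0064), JEN1 at -0.62 ± 0.15 (SE, adjusted p = 0.029), IDP2 at -0.41 ± 0.11 (SE, adjusted p = 0.031) and CIT3 at -0.41 ± 0.09 (SE, adjusted p = 0.022). LSC2 did not pass without any 1 of the BY4716 arrays, with adjusted p between 0.053 and 0.075, and with arrays scaled to equal spread neither LSC2 nor MDH2 passed. With Agilent's ratio none of the 4 lower members was called, and CIT3 was at 0.05. IDP2 also lost its call without any 1 of the BY4716 arrays, JEN1 without array 9 or 11 and CIT3 without array 11. In YLK806, 2 members were higher and 4 lower against RM11-1a, where 22.5% of 5863 genes were called, 10.8% higher and 11.8% lower. MDH1 was higher by 0.60 ± 0.14 (SE, adjusted p = 0.024) and DLD1 by 0.37 ± 0.05 (SE, adjusted p = 0.0059). CIT2 was lower, at -0.77 ± 0.09 (SE, adjusted p = 0.0042), CRC1 at -0.97 ± 0.14 (SE, adjusted p = 0.0069), CIT3 at -0.33 ± 0.09 (SE, adjusted p = 0.039) and YAT2 at -0.27 ± 0.07 (SE, adjusted p = 0.035). With Agilent's ratio CRC1, CIT3 and YAT2 did not pass, with adjusted p of 0.066, 0.27 and 0.094. CIT3 also lost its call under median centring and without BY4716 array 11 or RM11-1a array 7 or 9. YAT2 lost it with an offset of 10, under median centring and without BY4716 array 7, 9 or 11 or RM11-1a array 11.

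CRC1 was lower by nearly the same amount in YLK804 and YLK806, which carry opposite SAL1 alleles and share a scan day. In these comparisons its Cy3 signal differed by 1.09 and 1.13 on the log2 scale, and its Cy5 signal by 0.13 and 0.16. The reference's signal also differed more than the strain's for JEN1 and IDP2 in YLK804 and for CIT3 and YAT2 in YLK806. The scan day and the exchange cannot be told apart in either comparison alone. The effect of the SAL1-RM allele differed between the backgrounds for 16 of 36 members, near the share of 38.6% over 5863 genes. A shift shared by both arrays enters this difference in full.

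**Figure D4:**
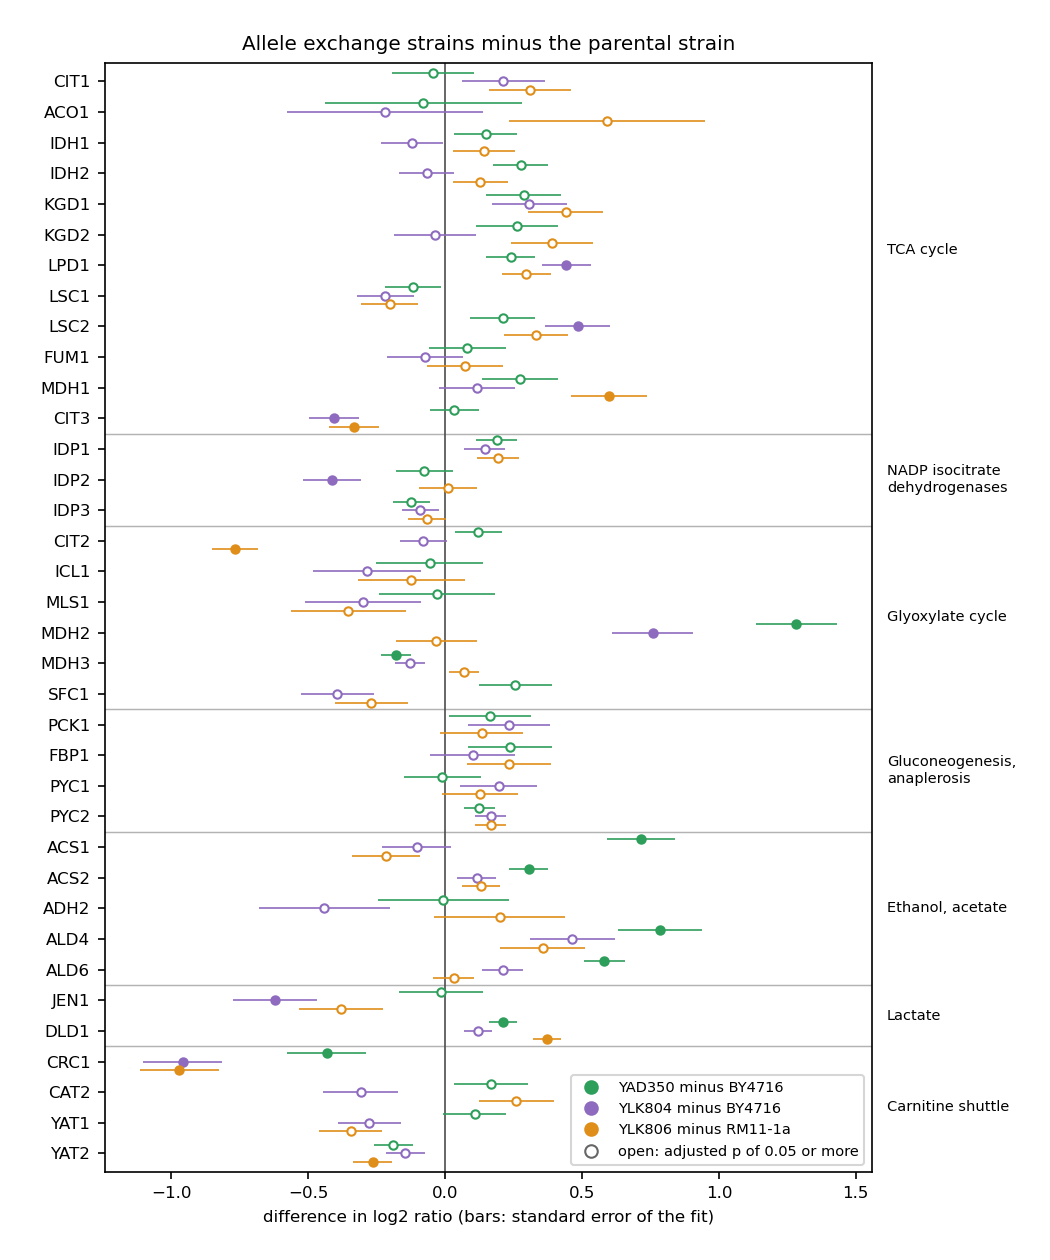
Difference in log2 ratio for the 36 members in YAD350 minus BY4716 (green), YLK804 minus BY4716 (purple) and YLK806 minus RM11-1a (orange), 1 array against 3 in each, with the standard error of the fit as bars and open points where the adjusted p was 0.05 or more. MDH2 lies far to the right in YAD350 and YLK804, and CRC1 lies to the left in all 3.

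The SAL1 allele was then compared over both backgrounds at once, as the mean of YLK804 minus BY4716 and RM11-1a minus YLK806, in which a shift shared by the 2 exchange arrays cancels. The mating type and URA3 differences of YLK804 from BY4716 do not cancel, so the allele cannot be told apart from them. All 6 mating type a genes and all 4 alpha genes checked here were called in this comparison. No member was called by limma, against 0.853% of all genes, a total of 50, and 7 members had an unadjusted p under 0.05. CIT2 came nearest, with the SAL1-RM allele at 0.34 ± 0.06 (SE, adjusted p = 0.064), followed by MDH2 at 0.40 ± 0.11 (SE, adjusted p = 0.22) and DLD1 at -0.13 ± 0.04 (SE, adjusted p = 0.26). CIT2 did pass with scan day as a random block, at 0.34 with an adjusted p of 0.033, under median centring, at 0.36, with arrays scaled to equal spread, at 0.65, and without RM11-1a array 7, at 0.37. Without RM11-1a array 9, IDP2 was called at -0.26 and CAT2 at -0.35. In the parental comparison CIT2 was at -0.81 and MDH2 at 1.14.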

How the data were processed

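RNA of 5 yeast strains was measured on 9 Agilent arrays with 2 colours. The deposited scanner files hold spot intensities that, per the file headers, Agilent Feature Extraction 8.5.1.1 made on 7 arrays and 9.1.3.1 on the YLK804 and YLK806 arrays. They also hold log10 ratios of red over green, deposited as Feature Extraction processed them. The deposited series table holds log2 ratios that lie within 5e-04 of the scanner's ratio, and its column medians lie between 0 and 0.008.

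From the mean and background intensities, limma 3.58.1 in R 4.3.3 computed normexp values with an offset of 50 and loess within each array, with control spots at weight 0. Outlier spots, 5 to 140 an array, were left out, and spots of a gene were averaged. A gene was kept if at least 3 of 9 arrays had it well above background in one of the channels, which left 5865 of 6256. One limma model with a mean per strain left 4 residual degrees of freedom, so the strains with 1 array borrow their spread from the parental arrays, assumed to vary alike. Values are log2 ratios, with Benjamini-Hochberg adjustment over all genes tested and a threshold of 0.05. P-values printed without a named setting are from this model. Those printed with a setting, such as an array left out or another ratio, are from the fit under that setting. On simulated data for the parental comparison with 5865 genes, 80% of genes changed 1.5-fold, 91.7% of those changed 2-fold and 97.1% of those changed 4-fold were recovered, and 4.26% of calls were false. Fitted log2 changes had a median of 0.694, 0.765 and 0.697 of the true value, so fold changes were understated on those data. The simulation changed 60, 72 and 68 genes at these folds. It gave all genes and arrays noise of the same size and held no scan day or slide effect. In the data 63.0% of genes were called, so the shares may not carry over. Whether these shares hold for each member was not tested. In the parental comparison Agilent's ratio gave MDH1 at 1.07 rather than 1.054 and ALD6 at 0.623 rather than 0.636. For the dimmer MLS1 it gave 0.784 rather than 0.574.

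Median signals were 237 to 424 units for the strains and 179 to 272 for the reference, and 5601 to 5872 genes were above background in the strain channel. The number of arrays limits the precision. Every member was found by its symbol, and all were named where they passed in the parental comparison or lay at least 2-fold from the reference in both parents. From each related list at most 3 genes were named, those that differed most among those that passed. The members and lists were chosen with earlier results of these data known. Alternatives were another offset, Agilent's ratio, the series table, median centring, scaling between arrays, other filters, an intensity trend, parental arrays alone, scan day and replicate blocks, and leaving out each parental array. Promoter sequences were not used here.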

Additional observations from a re-analysis of the deposited data

Results flagged for a closer look

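The effect of the SAL1-RM allele differed between the backgrounds in a test of the difference itself for 16 of 36 members, against 38.6% of 5863 genes (limma, adjusted p under 0.05). The count is near the share over all genes and does not set the members apart. The values are the log2 effect in the BY background minus that in the RM background. Of the 12 TCA cycle members 4 had a positive value that passed, KGD1 at 0.749, LPD1 at 0.74, LSC2 at 0.815 and MDH1 at 0.714, 1 had a negative one, CIT3 at -0.738, and 7 did not pass. Other positive values were found for MDH2 at 0.727, IDP1 at 0.336 and PYC2 at 0.332. ALD4 was at 0.821 and DLD1 at 0.492. Negative values were found for 3 of 4 carnitine shuttle genes, with CRC1 at -1.928, YAT1 at -0.622 and YAT2 at -0.411. For CRC1 the Cy3 signal of the reference differed by 1.09 in YLK804 and 1.13 in YLK806, and the Cy5 signal by 0.13 and 0.16. The lactate carrier gene JEN1 was at -1, CIT2 at -0.846 and SFC1 at -0.663. By construction each value is the sum of the shifts of YLK804 and YLK806 from their parents. These arrays share a scan day and a software version that no parental array has, so the day and the exchange cannot be told apart. The mating type and URA3 differences of YLK804 from BY4716 enter each value as well.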

How the results depend on the processing

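With all arrays scaled to an equal spread of log2 ratios, RM11-1a against BY4716 had 18 members called, 14 higher. CIT3 turned to -0.067, IDP2 to -0.077, MLS1 to -0.062, PCK1 to -0.06, FBP1 to -0.099 and CAT2 to -0.009. In YAD350 3 members were higher and 6 lower, with CIT3 at -0.303. In YLK804 1 was higher and 8 lower. In YLK806 against RM11-1a 15 were called, 12 lower, with IDP2 at -0.667 and FBP1 at -0.695. In YLK806 against YLK804 7 were lower, with CIT3 at -0.413, IDP2 at -0.096, MLS1 at -0.899, SFC1 at -0.31, FBP1 at -0.547, ACS1 at -0.615, CRC1 at -0.598 and YAT1 at -0.472. Agilent's ratio and the series table gave the same counts, 5 called and 0 lower in YAD350, 3 and 0 in YLK804, and 3 and 1 in YLK806 against RM11-1a, and put CIT3 in YLK804 at 0.047 and 0.046. An offset of 10 left 4 called in YLK804, 1 lower, and 1 lower in YAD350, as did an intensity trend and scan day as a random block. Subtracting the mean shift of YLK804 and YLK806 left 0 lower in YAD350, with DLD1 at -0.036 and CRC1 at 0.531. Median centring left 2 lower in YLK806 against RM11-1a, and put 3 members above the reference in the parents, with IDP1 at 0.26 and ALD6 at 0.268. The SAL1 comparison had 1 member called, CIT2, higher, under median centring, scaling and the random block. Scan day as a fixed block, chosen after seeing the data, turned ACO1 to 0.316 and IDP3 to -0.003. In that fit the parental difference is RM11-1a array 9 minus BY4716 array 9. Its spread comes only from BY4716 arrays 7 and 11, which share a day and a slide, so its p-values and calls are not given. The cause was not tested in any of these cases.

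Leaving out 1 parental array gave the following ranges of members called, higher and lower. RM11-1a against BY4716 had 25 to 29, 22 to 26 and 3 to 4. YAD350 had 6 to 15, 6 to 12 and 0 to 3, with 15 without RM11-1a replicate 7. YLK804 had 3 to 11, 2 to 6 and 1 to 6, and YLK806 against RM11-1a had 4 to 12, 2 to 9 and 2 to 6, both highest without RM11-1a replicate 9. The SAL1 comparison had 0 to 2, 0 to 1 and 0 to 2, and YLK806 against YLK804 had 19 to 26, 17 to 23 and 2 to 3. The counts over all genes moved too, from 3156 to 3628 between the parents, 2137 to 2938 for YAD350, 590 to 1449 for YLK804, 856 to 1562 for YLK806 against RM11-1a, 28 to 63 for SAL1 and 2067 to 2540 for YLK806 against YLK804. The deviations of arrays of the same number had correlations of -0.209, 0.137 and -0.176. With 3 arrays a strain and differing scan days, these values cannot decide whether the numbers pair cultures. With the replicate block 26 parental members were called, 23 higher and 3 lower. A slide correlation could not be estimated, since only 1 slide held 2 arrays. Dim strain signal limits CIT3, IDP3 and JEN1. The parental means of 4 other members moved with the ratio used. They were -6.78 for MLS1, -4.83 for ACS1, -4.43 for CRC1 and -3.40 for CAT2, and Agilent's ratio gave -7.40, -5.47, -5.14 and -4.11.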
